A study of Mus musculus with 6 samples.

Results

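Hint3 and the long non-coding RNA Gm20300, which lies inside the span of Hint3, were examined together with the genes on either side of them and the relatives of Hint3. The set holds 8 genes of the 22180 tested. They were chosen by symbol: Gm20300, Hint3, the flanking genes Trmt11 and Ncoa7, and the HIT-domain genes Hint1, Hint2, Fhit and Aptx. The choice was made with the knockdown-against-control values of Hint3 and Gm20300 in view, so the differences of these 8 genes are given as a description, with no p-value. How many of them the fit over all genes called is stated once for completeness, beside the share of all genes called, and supports nothing here. Each of the 8 had 1 probe set that carried its symbol alone and 0 that carried it with others, so no choice among probe sets was needed and every member was measured.

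The series measured total RNA of primary hippocampal cells dissected from mouse embryos of day 18. Both groups were infected with AAV1/2, an adeno-associated virus, 7 days after the cells were seeded, and both were harvested 7 days after that. The virus of 3 knockdown samples carried a construct against Diras2, a small GTPase of the Ras family, and the virus of 3 control samples a scrambled one. The labels name 1 construct, so loss of Diras2 and any other action of that construct cannot be told apart. They call the samples biological replicates without naming litters or cultures, so the spread between them may in part be technical. Each sample was read on 1 Affymetrix array, and 3 arrays in each group limit the precision. A level here is the log2 RMA value of a probe set, on which 1 unit is a doubling.

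HIT proteins are small nucleotide-binding enzymes named for a histidine triad in the active site, with which they cut or transfer nucleoside phosphates. Hint1, the most studied, splits purine phosphoramidates and aminoacyl-adenylates, and its loss in people causes an inherited axonal neuropathy. Hint2 is its mitochondrial relative, and Hint3 is a relative found in the cytosol and nucleus that also acts on aminoacyl-adenylates. Fhit splits diadenosine polyphosphates and lies on a fragile chromosome site, and Aptx, aprataxin, removes the AMP that a failed ligation leaves on a DNA end.

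In the RefSeq gene table of assembly GRCm38.p6, Gm20300 lies wholly within the span of Hint3 on chromosome 10, on the same strand, and both end at the same base. The start of Gm20300 in the RefSeq promoter table lies 11732 bases downstream of that of Hint3. The 3′ end of Hint3 and Gm20300 thus lie over each other on 1 strand. The probe sequences were not used here, so how much of either signal comes from the other transcript was not tested, and the pair cannot be counted as 2 separate observations. Trmt11 precedes the pair in gene order and Ncoa7 follows it.

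The stretch before the Hint3 start is shown because Hint3 and Gm20300 moved together while their starts lie apart. It is chr10:30618367-30618616 of GRCm38.p6, minus strand, from RefSeq, and the capitals mark GC boxes (GGGCGG) and the core of the cyclic AMP response element (TGACGT) on either strand. For Gm20300 the 30 bases before its start, chr10:30606635-30606664, are given, with no match to mark.
Hint3: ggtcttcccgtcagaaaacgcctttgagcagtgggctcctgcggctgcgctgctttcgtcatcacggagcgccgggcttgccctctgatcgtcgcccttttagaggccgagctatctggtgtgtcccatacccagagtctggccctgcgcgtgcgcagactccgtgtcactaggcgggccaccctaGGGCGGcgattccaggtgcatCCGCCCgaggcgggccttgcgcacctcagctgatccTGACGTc
Gm20300: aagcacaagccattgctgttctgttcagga

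The windows differ in make-up. The 250 bases before the Hint3 start were 65.2% G or C with 23 CpG dinucleotides, at percentiles 83.4 and 87.4 of 32841 mouse promoter windows of the same length. Those before the Gm20300 start were 37.6% G or C with 1 CpG, at percentiles 8.2 and 13.3. For Trmt11 the values were 60.0% and 13 CpGs, and for the first Ncoa7 window 61.6% and 16. The Hint3 window held GC boxes 64 to 59 and 43 to 38 bases before the start, the second of them on the opposite strand, and the response element core 7 to 2 bases before it on the strand of the gene. A GC box stood in 32.7% of all windows and the response element core in 6.5%, on either strand. The Gm20300 window held neither of these motifs. It held a TATAAA match, found in 12.4% of all windows, 197 to 192 bases before its start on the strand opposite to the gene. It also held 3 CCAAT matches, found in 33.9% of windows, of which 2 were on the opposite strand. The 4 motifs were chosen after the windows had been read, and a match is a description of letters, not of a bound site.

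Diras2, the target, had levels of 7.17, 6.23 and 6.08 on the knockdown arrays and 10.17, 10.17 and 9.76 on the control arrays. An exact two-sided permutation test gave p = 0.1, the smallest that 3 against 3 arrays allow. Over all genes, limma called 1731 of 22180 at an adjusted p under 0.05, or 7.80%, with 4.17% higher and 3.64% lower, and 2593 with the replicate number as a block. Neuron markers, 7 of 7 measured, had list means between 9.44 and 10.09 on every array, and none of them lay below 4.73, the median level of genes not called. Endothelial markers lay below it in 3 of 3 and microglial ones in 3 of 5, but astrocyte markers in 1 of 5 and fibroblast markers in 0 of 3. The astrocyte list ran from 7.26 to 7.66 in the knockdown and from 7.42 to 7.66 in the control. The fibroblast list ran from 6.88 to 6.99 and from 6.35 to 7.01. The oligodendrocyte lineage list ran from 5.84 to 7.07 in the knockdown and from 5.38 to 6.04 in the control, with 1 of 4 measured markers called higher. The inhibitory neuron list ran from 7.83 to 8.30 in the knockdown and from 8.14 to 8.70 in the control, with 1 of 4 called lower. The part of any of these cell types in the values below was not tested.

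Gm20300 was high on every knockdown array. Its probe set, 17240043, read 8.45, 8.54 and 8.31 in the knockdown and 5.83, 5.80 and 5.78 in the control. The groups lay far apart, with 2.48 between the lowest knockdown and the highest control array, while the control arrays spanned no more than 0.05. The means were 8.43 ± 0.12 (SD, n = 3) and 5.80 ± 0.03, a log2 difference of 2.63 (SE 0.10) or 6.19-fold. In order of increase Gm20300 was the third of all genes tested. More RNA per cell and more cells of a type that makes it cannot be told apart in these bulk samples.

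Hint3 showed the same pattern. Its probe set, 17240045, read 7.02, 7.21 and 7.11 in the knockdown and 4.65, 4.60 and 4.71 in the control. The gap between the groups was 2.31, again far wider than the spread within either. The means of 7.11 ± 0.10 (SD, n = 3) and 4.65 ± 0.06 gave a log2 difference of 2.46 (SE 0.10), or 5.50-fold, the fourth largest increase of the genes tested. The difference of Gm20300 exceeded that of Hint3 by 0.17.

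The starting level of Hint3 was low. Its control mean stood at percentile 45.6 of all genes in the control, just under the 4.73 that is the median of genes not called, and its knockdown mean at percentile 71.2. Gm20300 went from percentile 57.4 to percentile 85.7. RMA compresses weak signals, so the fold of Hint3 can be understated, and whether its control level lay above background was not tested. The SEs of both genes were small beside the other genes tested, at percentiles 14.2 and 11.6.

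Taken by replicate number, both genes rose at every number. Knockdown minus control was 2.62, 2.74 and 2.53 for Gm20300 and 2.37, 2.61 and 2.40 for Hint3 in numbers 1, 2 and 3. Number 2 gave the widest step in both, while numbers 1 and 3 stood in opposite order. With each array left out in turn, the difference ran from 2.58 to 2.69 for Gm20300 and from 2.41 to 2.51 for Hint3. Because the groups lay so far apart, a rise at every number and without any array was fixed in advance. These values describe the pair and are no further support.

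**Figure D1:**
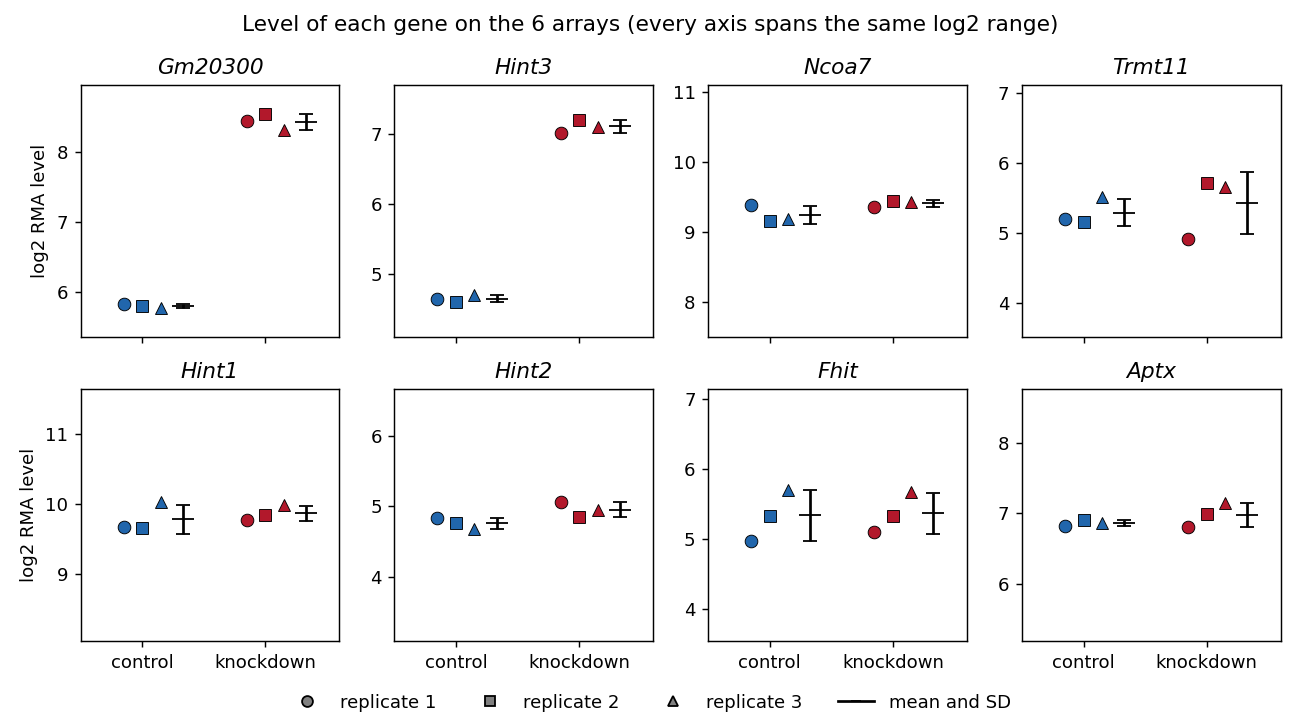
The log2 RMA level (vertical axes, all spanning the same range) of the 8 genes on 3 control arrays (blue) and 3 knockdown arrays (red); symbols give the replicate number and bars the mean and SD. Gm20300 and Hint3 stand 2.48 and 2.31 apart between the groups, while the groups of the other 6 genes meet or nearly meet.

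The genes on either side of the pair had far smaller differences than the pair, although that of Trmt11 was imprecise. Ncoa7, a nuclear receptor coactivator with a TLDc domain linked to oxidation resistance, read 9.35, 9.44 and 9.43 in the knockdown and 9.38, 9.15 and 9.18 in the control. The first control array lay inside the knockdown range. The means were 9.41 ± 0.05 (SD, n = 3) and 9.24 ± 0.13, a log2 difference of 0.17 (SE 0.10).

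Trmt11, the catalytic subunit of a methyltransferase that modifies a guanosine of tRNA, read 4.92, 5.71 and 5.66 in the knockdown and 5.20, 5.16 and 5.51 in the control. Its lowest and its highest array both belonged to the knockdown. The log2 difference was 0.14 (SE 0.21), and it ran from 0 without knockdown replicate 2 to 0.40 without knockdown replicate 1. The SE stood at percentile 93.8 of all genes, so a modest change of Trmt11 cannot be told from none.

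Beyond the members, the 10 genes before and the 10 after Hint3 in gene order were looked up, most of them pseudogenes and non-coding RNAs. Of these 17 genes, 2 had a probe set of their own, Cenpw and Hey2, both protein-coding. Hey2, a Notch-responsive transcriptional repressor that stands 5 genes after Hint3, read 6.50, 6.63 and 6.55 in the knockdown and 5.88, 6.08 and 6.03 in the control. Every knockdown array lay above every control array. It rose by 0.56 (SE 0.10) on the log2 scale, 1.48-fold, with an adjusted p by limma of 0.0141. The call was lost without knockdown replicate 2 (0.0667) or 3 (0.0540) and when RNA integrity was a covariate (0.0587), and held in the other 11 of 14 alternatives, whose adjusted p started at 0.00781. Cenpw, a centromere protein, had a low level of 3.26 ± 0.08 (SD, n = 3) against 3.27 ± 0.15 and an adjusted p by limma of 0.984. Thus 1 of 2 measured flanking genes was called, where 7.80% of all genes were, a count too small to describe the region.

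Hint1 differed little between the groups. It read 9.77, 9.85 and 9.99 in the knockdown and 9.67, 9.66 and 10.03 in the control, so its highest array was a control. The log2 difference was 0.08 (SE 0.13).

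Hint2 read 5.07, 4.85 and 4.95 in the knockdown and 4.84, 4.76 and 4.68 in the control. The groups did not overlap, but the gap was 0.01. The log2 difference of 0.20 (SE 0.10), 1.15-fold, was the widest among the 6 members other than the pair, and it is small beside the 2.46 of Hint3.

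Fhit followed the replicate number rather than the group. It read 5.09, 5.33 and 5.66 in the knockdown and 4.97, 5.33 and 5.70 in the control, so arrays of the same number differed by 0.12, 0 and -0.04 while arrays of 1 group spanned more than that. Its log2 difference was 0.03 (SE 0.21), and it ran from -0.15 to 0.21 as each array was left out. Both the SE and that range are unpaired, so they include the spread between replicate numbers.

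Aptx read 6.80, 6.99 and 7.15 in the knockdown and 6.82, 6.90 and 6.86 in the control. All 3 control arrays lay within the knockdown range. The log2 difference was 0.12 (SE 0.11).

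Of the 8 members, 2 were called by limma and 6 were not, where 7.80% of all genes were called, and the groups of 3 did not overlap, as for 25.5% of all genes (13.4% with the knockdown above the control and 12.1% with it below). The 2 called are the pair whose values led to the choice of the set, so nothing is read from that count. The 6 others had log2 differences from 0.03 to 0.20 with a median of 0.13, against a median of 0 over all genes. The median SE over all genes, 0.12, belongs to single genes and does not measure the uncertainty of that median. All 8 members lay above 0, where 49.7% of all genes did, and that count was not tested.

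**Figure D2:**
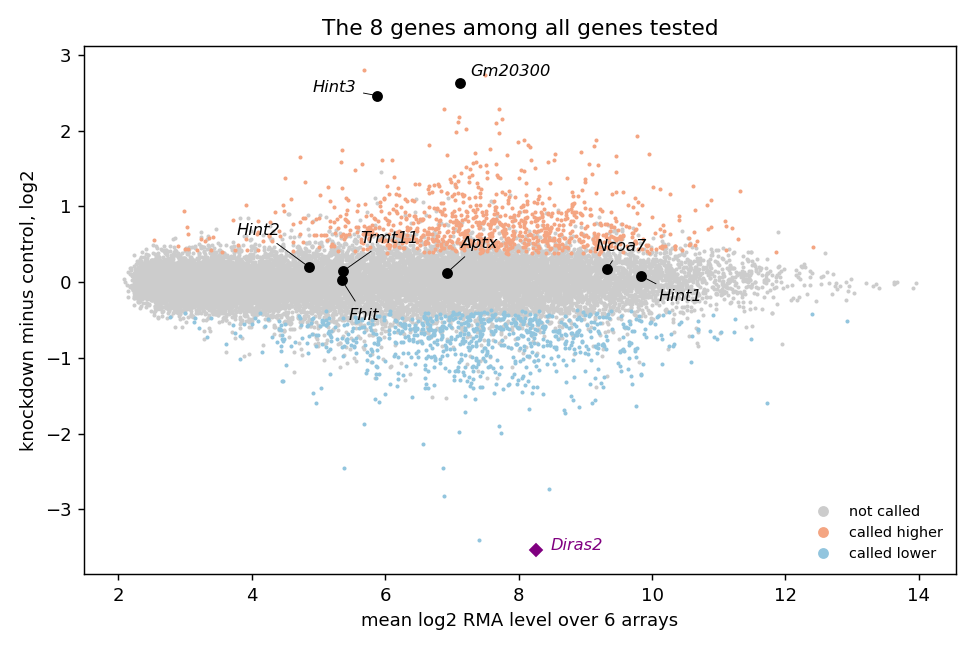
Knockdown minus control on the log2 scale (vertical axis) against the mean log2 level over 6 arrays (horizontal axis) for the 22180 genes tested, with those called by limma coloured. Gm20300 and Hint3 lie at 2.63 and 2.46 near the upper edge, the 6 other members between 0.03 and 0.20, and Diras2 at -3.54.

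Further members of the HIT superfamily were read from a list that did not enter the choice of the set. This list, like the other comparison lists, was drawn up with earlier results of these data known. Of 5 genes 4 were measured, and limma called 0 of them, where 7.80% of all genes were called. A count of 0 among so few genes is near that share and is no result about the family. Their median log2 difference was -0.11, and 3 of 4 lay below 0, where 49.7% of all genes lay above 0. Dcps, the scavenger enzyme that degrades the cap left after mRNA decay, read 6.09, 6.16 and 6.29 in the knockdown and 6.48, 6.83 and 6.34 in the control. The difference was -0.37 (SE 0.14) on the log2 scale, and limma gave an adjusted p of 0.176. Its groups did not overlap. Cwf19l2, related to a splicing factor of yeast, had -0.19 (SE 0.10) with an adjusted p of 0.365.

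The relatives of Ncoa7 by domain or name, TLDc proteins and nuclear receptor coactivators, were measured in 10 of 10 cases. Limma called 1 lower, 0 higher and 9 not at all, with a median log2 difference of -0.04. As 7.80% of all genes were called, a count of 1 is near that share and is no result about the list. Meak7, a TLDc protein of lysosomes tied to mTOR signalling, read 7.13, 7.00 and 7.20 in the knockdown and 7.83, 7.90 and 7.65 in the control. The groups lay apart, and it fell 1.61-fold, which is -0.68 (SE 0.11) on the log2 scale, at an adjusted p by limma of 0.00898. The call was lost without control replicate 2 (0.0512) and held in 13 of 14 alternatives. Ncoa4, which delivers ferritin to autophagy, had -0.28 (SE 0.10) and an adjusted p of 0.141, with the knockdown below the control on every array.

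Trmt11 works with the small protein Trmt112, which also serves other methyltransferases of tRNA, rRNA and protein. Of 7 such genes 5 were measured, of which limma called 1 higher, 0 lower and 4 not at all. Their median log2 difference was 0.05. Over all genes 7.80% were called, and a count of 1 among so few is no result about the list. Trmt112 itself had -0.20 (SE 0.13). N6amt1, which methylates a glutamine of the translation release factor, read 6.66, 6.78 and 6.54 in the knockdown and 6.23, 5.84 and 5.35 in the control. It rose 1.81-fold, by 0.85 (SE 0.20) on the log2 scale, at an adjusted p by limma of 0.0431, and the control arrays were widely spread. That call was lost without any 1 knockdown array, without control replicate 2 or 3, and when RNA integrity was a covariate, where adjusted p ran from 0.0563 to 0.152. Alkbh8, which modifies the wobble uridine of tRNA, had -0.34 (SE 0.11) and an adjusted p of 0.133.

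Aptx acts in the repair of broken DNA strands with scaffold, ligase and end-processing proteins. Of 11 such genes 9 were measured, of which limma called 1 lower, 0 higher and 8 not at all. Their median log2 difference was 0.06. With 7.80% of all genes called, a count of 1 is near that share and is no result about the list. Lig3, the ligase that seals single-strand breaks, read 6.56, 6.44 and 6.60 in the knockdown and 7.30, 7.15 and 7.06 in the control. The groups lay apart and it fell 1.55-fold, which is -0.64 (SE 0.11) on the log2 scale, at an adjusted p by limma of 0.0104. The call was lost without knockdown replicate 2 (0.0534) or control replicate 2 (0.0505). Tdp2, which frees DNA ends from trapped topoisomerase, had 0.25 (SE 0.09), an adjusted p of 0.167 and no overlap between the groups. Xrcc1, the scaffold that binds Aptx, had -0.15 (SE 0.13).

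**Figure D3:**
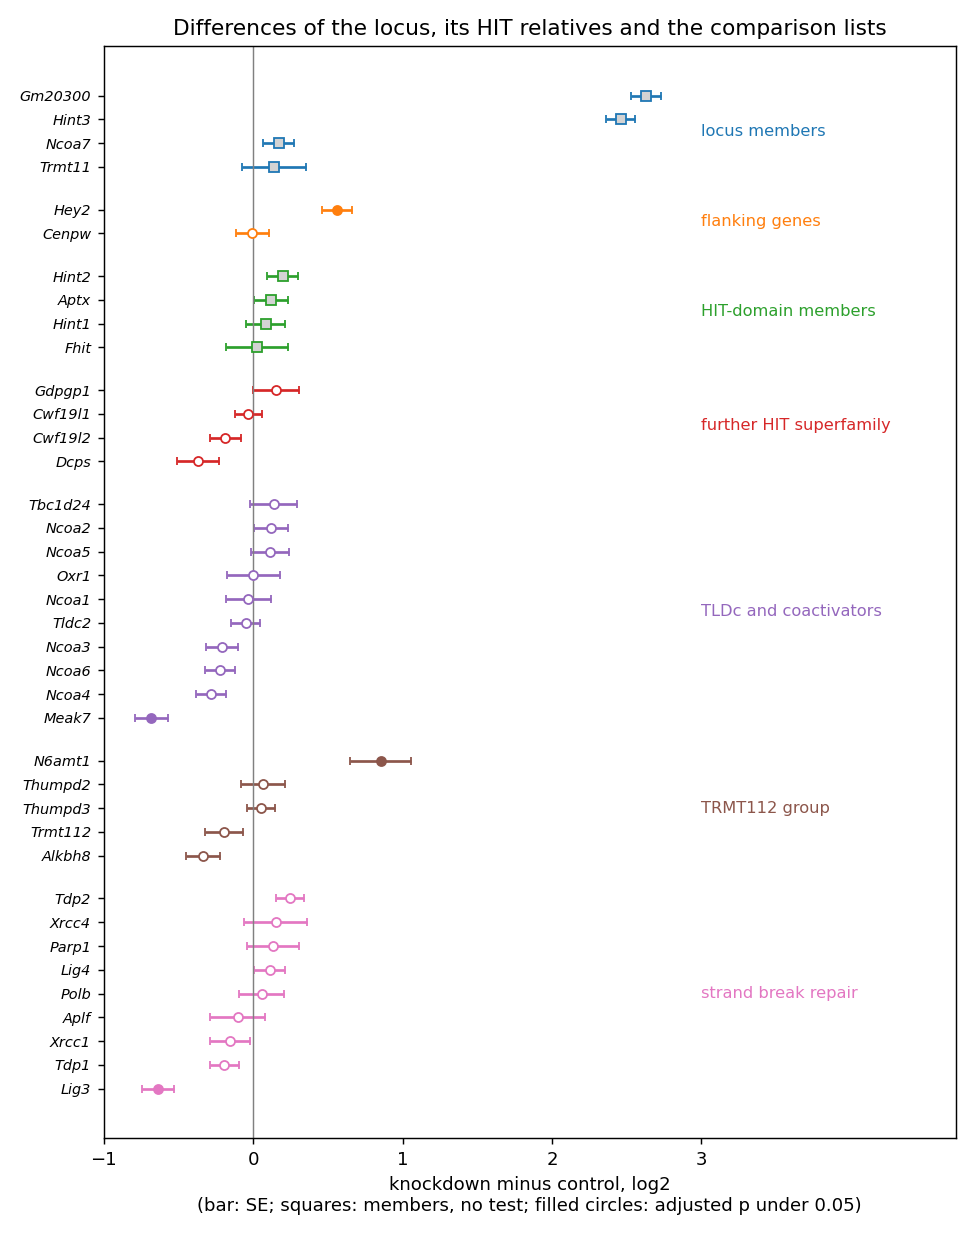
Knockdown minus control on the log2 scale (horizontal axis; bars are SEs) for the 8 members (squares, no test shown) and the genes of the 5 comparison lists (circles, filled where the adjusted p by limma was under 0.05). Gm20300 and Hint3 at 2.63 and 2.46 lie beyond all others shown, of which N6amt1 at 0.85 is the highest and Meak7 at -0.68 the lowest.

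The genes most like Hint3 were sought by centring each gene on its own mean and taking the root mean square difference from Hint3 over the 6 arrays, in log2 units. Gm20300 was the nearest of all genes tested, at 0.115, followed by Setd7, a lysine methyltransferase, at 0.133 and Sdc2, a heparan sulfate proteoglycan, at 0.157. Stard7, a phosphatidylcholine carrier, and Mmgt1, of the endoplasmic reticulum membrane complex, stood at 0.238 and 0.239. The median over all genes was 1.24, a value set mainly by the step of Hint3 itself. Hint3 and Gm20300 were chosen with their differences in view and lie over each other on 1 strand. Their nearness is thus a description and supports nothing.

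For Gm20300 the nearest was Hint3, followed by Stard7 at 0.160, Setd7 at 0.199, Sdc2 at 0.237 and Mmgt1 at 0.280. The same 4 genes outside the locus stood near both. Since Hint3 and Gm20300 lay only 0.115 apart, a gene near 1 of them tends to be near the other. The measure is governed by the size of the step between the groups, so it names genes that rose by a like amount on the same 3 arrays. Within the knockdown, Stard7 spanned 8.58 to 9.10 and Setd7 only 7.99 to 8.05, against 7.02 to 7.21 for Hint3.

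**Figure D4:**
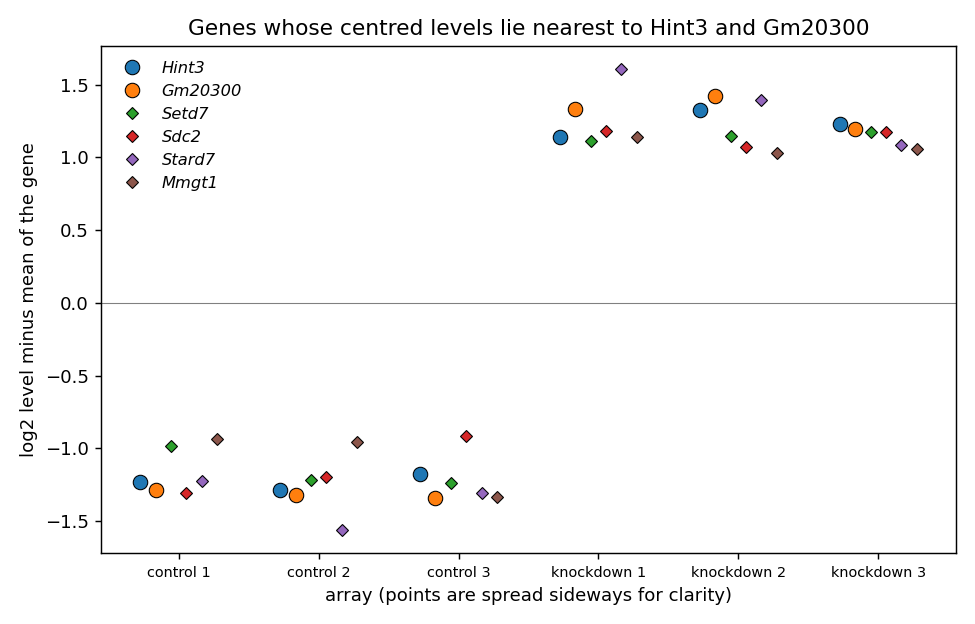
The log2 level of each gene minus its own mean (vertical axis) on the 6 arrays (horizontal axis) for Hint3, Gm20300 (large circles) and the 4 other genes nearest to them (diamonds). All 6 genes lie below 0 on the 3 control arrays and above 0 on the 3 knockdown arrays.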

How the data were processed

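The authors deposited log2 levels per probe set. Per the submitters' processing notes these come from RMA, with Affymetrix Expression Console at version 1.2.1.20. RMA puts all arrays on 1 distribution, which hides a change shared by most genes. For the array's probes, a genome build is not given in the sources. Array medians ran from 4.03 to 4.11. A platform annotation gives 23521 of 41345 probe sets 1 symbol, and the brightest probe set stood for each of 22180 genes. Knockdown minus control was fitted on all of them with limma 3.58.1 (R 4.3.3, no trend) and Benjamini-Hochberg adjustment, and called at an adjusted p under 0.05. The procedure was tested on simulated data with independent arrays, so it was not tested on arrays that correlate by replicate number. Folds are the antilog of the absolute log2 difference.

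Deviations from group means correlated at 0.43, 0.12 and 0.37 for arrays of the same replicate number and at -0.38 to 0.06 for others. All 3 exceeded 0.1, so equal numbers were treated as pairs in the replicate block alternative. That pairing rests on the data and not on the labels, and number 2, at 0.12, passed only narrowly. Deviations cancel within each group, so the correlations for equal and for other numbers are not independent of each other. The main fit had no block, so the SEs, calls and adjusted p-values given are unpaired unless the block is named.

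Members and lists were chosen with earlier results of these data known. Named were the members, Diras2, list genes called, the 2 of each list with the smallest p, and the 5 genes nearest Hint3 and Gm20300. Trmt112 and Xrcc1 were named after their values were seen. The 14 alternatives were the replicate block, each array left out, quantile normalisation, median centring, genes above the median level, RNA integrity, mean of probe sets, an intensity trend and array weights. Promoters are from RefSeq (GRCm38.p6), which held 7 of the 8 members. Figures used matplotlib 3.10.9.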

Additional observations from a re-analysis of the deposited data

How the results depend on the processing

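The count of members called, a description, was 2 in all 14 alternatives, and Gm20300 and Hint3 stayed among the 4 largest increases in each. Leaving out 1 array gave 689 to 1487 genes called, 383 to 800 higher and 306 to 687 lower, and 0 to 1 called for the flanking, TLDc, TRMT112 and strand break repair lists. The lowest counts of genes came without control replicate 2. RNA integrity as a covariate gave 758 genes (402 higher, 356 lower) and 0 called in the flanking and TRMT112 lists. Array weights gave 2703 (1401 and 1302). The replicate block gave 2593 genes (1341 higher, 1252 lower), against 1731 (924 and 807) in the main fit. It changed no call given here for a single gene or list. The difference of Cenpw turned positive without knockdown replicate 2 (0.04), without control replicate 1 (0.075, against -0.07 as the lowest) and with median centring (0.017). The cause of these changes was not tested. Hint2 and Cenpw have no value among genes above the median level.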
